A study of Mus musculus with 12 samples.

Results

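The genes described here are 29 genes of cholesterol and fatty acid synthesis, out of 55367 genes in the count table. They were chosen as a list of symbols by their known role, with earlier results of these data known. They comprise 18 enzymes of the sterol arm, 7 enzymes of the fatty acid arm, the sterol transport protein gene Stard4 and 3 genes of the SREBP control system. All 29 were expressed well enough to be tested. They were measured by RNA sequencing in 12 libraries of mouse tongue organoids, self-organising epithelial cultures from the taste-bearing folds at the back of the tongue. The CVP line comes from the circumvallate papilla and the FoP line from the foliate papilla.

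In each line, wild type organoids were sequenced in duplicate beside duplicates of 2 clones whose genotype is given as Foxe1 knock-out. The clones are 2.9 and 2.10 for CVP, and 2.4 and 2.5 for FoP. Foxe1 encodes a forkhead transcription factor, and the study asked about its part in the fate decisions of tongue stem cells. The cell type is given as various, the treatment as a genetic modification, and no medium, time in culture or editing method is stated. The clone names stand on knock-out libraries alone, so the effect of the genotype and that of deriving a clone cannot be told apart. The labels do not say whether duplicates were grown separately, so p-values measure the spread between these libraries, which may be technical, and 2 clones stand behind each line. The wild type or a clone of a line, with its duplicates, is called a culture.

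Cells build cholesterol from acetyl-CoA through mevalonate, isoprenoid units, squalene and lanosterol. The membrane-bound factor SREBP-2, from Srebf2, is known to switch these enzymes on together when sterol in the endoplasmic reticulum is low. SREBP-1, from Srebf1, is known chiefly for the fatty acid enzymes, and INSIG proteins hold both factors back when sterol is plentiful. In stratified and glandular epithelia these lipids go into membranes, secretory granules and barrier lipids.

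The 12 libraries held 59.3 to 73.6 M counts. Members ran from 267 counts for Tm7sf2 to 74121 for Scd2 in a library, and at 267 counts the counting error alone is 6.1%. Levels are given in CPM (counts scaled to library size, with TMM factors). The 7 epithelial markers were expressed in every library and summed to 9939 to 10410 CPM in CVP wild type and 12820 to 15230 in the CVP clones, and to 11480 to 11550 in FoP wild type and 11090 to 13930 in the FoP clones. Adipocyte markers (6 genes, Adipoq at 0 everywhere) summed to at most 0.136 CPM and hepatocyte markers to at most 0.076 CPM. Foxe1 itself stood at 15.4 and 15.9 CPM in CVP wild type, 23.7 and 22.7 in clone 2.9 and 7.33 and 8.46 in clone 2.10. It stood at 16.3 and 16 CPM in FoP wild type, 22.4 and 20.0 in clone 2.4 and 11.2 and 11.5 in clone 2.5. The transcript was thus above wild type in 1 clone of each line and below it in the other. The labels do not say which bases were altered, so this level does not check the genotype.

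The promoters of 4 members are shown because these genes went in different directions in the clones: Hmgcs1 and Hsd17b7 rose in CVP, Sc5d fell in both lines and Insig1 fell in FoP. The bases come from RefSeq on GRCm38.p6, read 5′ to 3′ on the gene's strand upstream of its start. Capitals mark a sterol regulatory element (TCACNCCAC), an E-box (CACGTG) or a CCAAT box (CCAAT, also read as ATTGG), searched on both strands.
Hmgcs1: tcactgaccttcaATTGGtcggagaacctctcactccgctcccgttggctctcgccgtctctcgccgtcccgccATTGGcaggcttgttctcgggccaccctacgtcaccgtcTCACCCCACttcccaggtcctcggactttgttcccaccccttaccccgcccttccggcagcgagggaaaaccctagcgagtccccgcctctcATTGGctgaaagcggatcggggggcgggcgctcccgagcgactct
Hsd17b7: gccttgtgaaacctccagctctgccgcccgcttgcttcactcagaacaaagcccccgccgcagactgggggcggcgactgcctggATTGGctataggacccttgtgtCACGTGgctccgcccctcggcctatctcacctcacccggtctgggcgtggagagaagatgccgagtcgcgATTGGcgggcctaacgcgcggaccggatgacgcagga
Sc5d: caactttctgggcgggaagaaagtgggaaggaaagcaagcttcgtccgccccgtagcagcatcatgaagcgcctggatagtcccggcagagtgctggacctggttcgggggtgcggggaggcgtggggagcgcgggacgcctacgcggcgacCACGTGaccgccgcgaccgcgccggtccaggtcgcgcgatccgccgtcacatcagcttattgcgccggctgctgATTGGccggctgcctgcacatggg
Insig1: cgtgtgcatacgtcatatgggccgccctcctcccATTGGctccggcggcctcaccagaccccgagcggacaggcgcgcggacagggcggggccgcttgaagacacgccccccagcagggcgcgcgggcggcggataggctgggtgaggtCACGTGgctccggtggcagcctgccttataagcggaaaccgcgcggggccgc
These windows lie at chr13:119690101-119690350 (plus strand), chr1:169969242-169969455 (minus strand), chr9:42264301-42264550 (minus strand) and chr5:28071162-28071362 (plus strand). All 4 lie upstream of the first exon. GENCODE M21 places the gene bodies at chr13:119690379-119708260 for Hmgcs1 (ENSMUSG00000093930.2), chr1:169949535-169969241 for Hsd17b7 (ENSMUSG00000026675.12), chr9:42251595-42264256 for Sc5d (ENSMUSG00000032018.14) and chr5:28071363-28078662 for Insig1 (ENSMUSG00000045294.11).

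Of the 29 members, 23 matched a RefSeq promoter; Fdps, Fdft1, Sqle, Stard4, Scd1 and Scd2 did not. Over the 250 bases before the start, CCAAT was found in 18 of the 23 members (78.3%) and in 33.85% of 32851 mouse promoters. TCACNCCAC was found in 1 member, Hmgcs1, where it starts at position -137 from the start of the transcript, and in 1.053% of promoters. CACGTG was found in 4 members, Hsd17b7, Sc5d, Insig1 and Elovl5, and in 6.021% of promoters. The E-box thus stands upstream of a gene that rose in CVP, Hsd17b7, of 2 that fell, Sc5d and Insig1, and of Elovl5, which passed the test in neither line. A match is a run of letters and not a measured binding site.

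In wild type CVP organoids, scaled to exon length, Scd2 and Scd1, which desaturate fatty acids, had the highest levels among the members, at 136 and 100.8 CPM per kb. Srebf2 followed at 56.5, Srebf1 at 37.1, Acly at 30.7 and Sc5d at 29.5 CPM per kb. The lowest levels were those of Tm7sf2 at 1.05, Idi1 at 1.37 and Fdps at 1.4 CPM per kb. These genes share sequence with other genes, as given below, so their levels may be undercounted. The FoP wild type gave 135.9 CPM per kb for Scd2, 70.3 for Scd1 and 1.03 for Tm7sf2. Only 2 members passed the test between the wild types, 1 in each direction, where 6.68% of all 17076 tested genes were called, 3.77% higher and 2.91% lower. Acly, which makes cytosolic acetyl-CoA from citrate, stood at 162.2 and 161.9 CPM in CVP and at 202 and 206 in FoP (log2 fold change 0.33 ± 0.09 SE, adjusted p = 0.0444). Scd1 stood at 514 and 472 CPM in CVP and at 341 and 346 in FoP (log2 fold change -0.52 ± 0.09 SE, adjusted p = 0.00642). Every adjusted p is from the edgeR quasi-likelihood test, by the Benjamini-Hochberg method across the 17076 genes, and a call is an adjusted p under 0.05. In 13 of the 18 sterol arm genes both FoP wild type libraries lay above both CVP ones, against 30.7% of all genes (59.2% did not overlap in either direction, 28.5% lying below), with a median log2 fold change of 0.28 (0.01 over all genes). None of these 18 was called by edgeR: 1, Hmgcs1, had an unadjusted p under 0.05, and the DESeq2 Wald test called 5 of the 29 members. The Acly call was lost when any of 7 single libraries was left out (adjusted p up to 0.201): each of the 4 wild type libraries, duplicate 1 of clone 2.9, duplicate 2 of clone 2.4 and duplicate 1 of clone 2.5. That of Scd1 was lost without CVP wild type duplicate 1 or either FoP wild type library (up to 0.0723). With those 3 libraries left out in turn the edgeR comparison called 0 members. It called 1 without CVP wild type duplicate 2, duplicate 1 of clone 2.9, duplicate 2 of clone 2.4 or duplicate 1 of clone 2.5, and 4 without duplicate 2 of clone 2.5.

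In the CVP line the question was how the clones labelled knock-out differ from wild type in lipid synthesis. Most of the pathway was higher in the clones: 17 members rose and 3 fell, while 9 did not pass. Over all tested genes 46.4% were called, 23.5% higher and 22.9% lower. The share of members called higher was above that background and the share called lower was below it. Because the list was chosen with earlier results of these data known, these shares describe the members and are no test of them. The median log2 fold change of the 29 members was 0.50, against 0.03 over all genes. In 20 members every clone library lay above both wild type libraries (31.7% of all genes), and in 5 every one lay below (30.0%; 61.7% in either direction). Where the culture was taken as the unit by summing its duplicates, fewer members were called, all of them among the 20 called before. CVP wild type had no replicate in that fit, and fewer genes of any kind were called. It therefore cannot show whether the share of members differed from the background. Leaving out either CVP wild type library gave 11 calls. Leaving out clone 2.9 gave 13 (44.8%), beside 42.9% of all genes.

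Within the sterol arm, 12 of 18 enzymes rose in the CVP clones, 1 fell and 5 did not pass, with a median log2 fold change of 0.69. The early steps lead from acetyl-CoA to isoprenoid units. Hmgcs1, which makes HMG-CoA at the entry to the mevalonate pathway, stood at 79.5 and 81.8 CPM in wild type, 173.5 and 131.6 in clone 2.9 and 146.5 and 113.3 in clone 2.10. Every clone library was above both wild type libraries, and duplicate 1 was the higher in both clones (log2 fold change 0.81 ± 0.18 SE, adjusted p = 0.00475). Mvk, mevalonate kinase, stood at 9.31 and 8.80 CPM in wild type and between 14.7 and 21.2 in the clones (0.97 ± 0.18, adjusted p = 0.000841). Mvd, which decarboxylates the diphosphate, rose from 10.8 and 10.5 CPM to between 15.9 and 22.5 (0.81 ± 0.25, adjusted p = 0.0202). Pmvk, the kinase between them, did not pass: wild type was at 21.9 and 19.6 CPM and the clones between 20.8 and 24.7 (0.09 ± 0.11, adjusted p = 0.525). Acat2, the cytosolic thiolase, rose by 0.60 ± 0.18, Idi1, which isomerises isopentenyl diphosphate, by 0.99 ± 0.35, and Fdps, which makes farnesyl diphosphate, by 0.80 ± 0.29 on the log2 scale. The calls of Hmgcs1 and Mvk held with each library left out in turn. Those of Acat2 and Mvd were lost without either CVP wild type library (adjusted p up to 0.148 and 0.106). Those of Idi1 and Fdps were lost in 7 and 9 of the 12 omissions (up to 0.214 and 0.198). For both these were each of the 4 wild type libraries, either duplicate of clone 2.9 and duplicate 1 of clone 2.10; for Fdps also duplicate 2 of clone 2.4 and duplicate 1 of clone 2.5.

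At the squalene stage 1 of 3 genes rose in the CVP clones. Lss, which closes squalene epoxide into lanosterol, stood at 33.2 and 33.6 CPM in wild type and between 45.2 and 66.1 in the clones (log2 fold change 0.73 ± 0.19 SE, adjusted p = 0.00894). Its call was lost without either CVP wild type library, while its log2 fold change was at least 0.63 in every omission of a library. Sqle, squalene epoxidase, was above wild type in all 4 clone libraries, at 66.9 to 114.9 CPM against 55.1 and 58.7, but missed the threshold (0.64 ± 0.29, adjusted p = 0.0999). Fdft1, squalene synthase, overlapped wild type (0.21 ± 0.18, adjusted p = 0.365).

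The steps from lanosterol to cholesterol held both the highest fold change and the fall. Hsd17b7, a sterol ketoreductase whose promoter is shown above, stood at 10.2 and 10.5 CPM in wild type, 32.6 and 24.3 in clone 2.9 and 27.9 and 17.5 in clone 2.10. All 4 clone libraries were above wild type, and its log2 fold change of 1.31 ± 0.30 (SE, adjusted p = 0.00492) was the highest of the 29. Nsdhl, which removes the C4 carboxyl group, rose from 21.3 and 23.6 CPM to between 35.7 and 54.0 (1.00 ± 0.26, adjusted p = 0.0117). Tm7sf2, a C14 sterol reductase, rose from 4.54 and 4.71 CPM to between 7.33 and 10.7 (0.93 ± 0.16, adjusted p = 0.000354). Msmo1, the C4 methyl oxidase that acts beside Nsdhl and Hsd17b7, overlapped wild type at 72.0 to 100.7 CPM against 90.3 and 98.2 (-0.15 ± 0.21, adjusted p = 0.612). Cyp51, the C14 demethylase, was above wild type in all 4 clone libraries and did not pass (0.56 ± 0.28, adjusted p = 0.133). Nsdhl lost its call without either CVP wild type library (adjusted p up to 0.0909), while the calls of Hsd17b7 and Tm7sf2 held in all 12 omissions.

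Each of the last 3 enzymes of the arm went the same way in both lines. Dhcr7, which makes cholesterol from 7-dehydrocholesterol, stood at 47.1 and 44.7 CPM in CVP wild type, 66.0 and 61.0 in clone 2.9 and 69.5 and 63.3 in clone 2.10 (log2 fold change 0.50 ± 0.07 SE, adjusted p = 8.9e-05). In FoP it stood at 44.0 and 44.7 CPM in wild type, 51.2 and 56.1 in clone 2.4 and 51.6 and 59.2 in clone 2.5 (0.30 ± 0.07, adjusted p = 0.0063). Clone and wild type libraries did not overlap in either line. Ebp, the sterol isomerase, stood at 37.7 and 34.7 CPM in CVP wild type, 41.5 and 42.3 in clone 2.9 and 44.5 and 43.7 in clone 2.10 (0.25 ± 0.06, adjusted p = 0.00443). In FoP it stood at 36.3 and 35.6 CPM in wild type, 42.0 and 43.4 in clone 2.4 and 46.7 and 46.5 in clone 2.5 (0.31 ± 0.06, adjusted p = 0.00203). The groups again did not overlap.

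Sc5d, the lathosterol desaturase that supplies the substrate of Dhcr7, fell. It stood at 142.4 and 145.0 CPM in CVP wild type, 123.1 and 113.7 in clone 2.9 and 105.7 and 104.2 in clone 2.10 (log2 fold change -0.36 ± 0.06 SE, adjusted p = 0.0004). In FoP it stood at 137.9 and 143.4 CPM in wild type, 122.2 and 121.4 in clone 2.4 and 117.8 and 127.5 in clone 2.5 (-0.20 ± 0.06, adjusted p = 0.0271). Every clone library of each line was below its wild type. In CVP the calls of Dhcr7 and Sc5d held in all 12 omissions of a library and that of Ebp was lost without CVP wild type duplicate 2 (adjusted p = 0.0746). In FoP that of Ebp held in all 12, that of Dhcr7 was lost without FoP wild type duplicate 1 (0.0629), and that of Sc5d was lost in 4, without either FoP wild type library or without duplicate 1 of either FoP clone (up to 0.191).

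**Figure D1:**
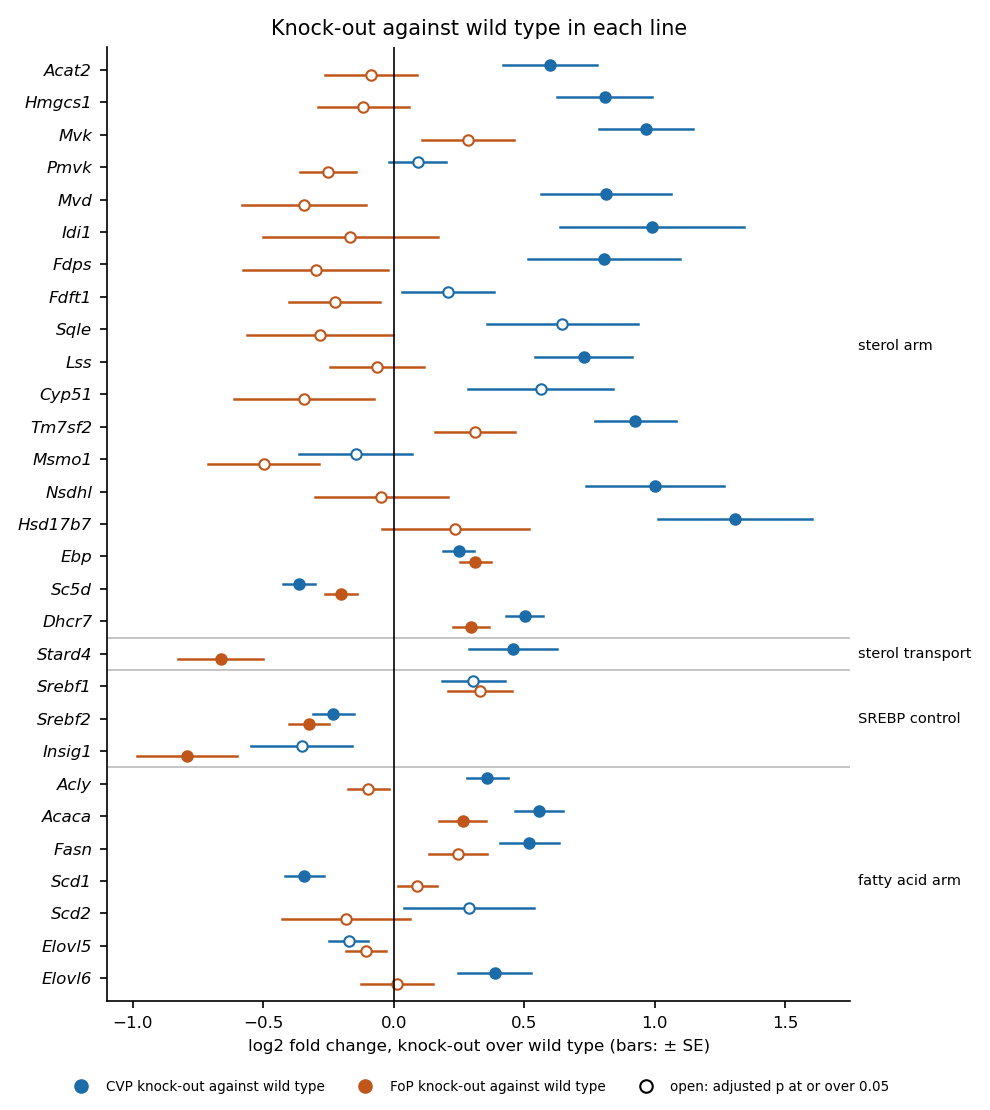
Log2 fold change (± SE) of each of the 29 members in the clones labelled knock-out over wild type, for CVP (blue) and FoP (orange), in pathway order from top to bottom; filled points are calls. The CVP points of the sterol arm lie mostly right of 0 with a median of 0.69, and the FoP points scatter around a median of -0.14.

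In the FoP line 3 members rose, 4 fell and 22 did not pass, where 28.8% of all tested genes were called, 13.5% higher and 15.3% lower. The shares of members called were thus close to the background in both directions, and the median log2 fold change was -0.11, against 0.01 over all genes. Ebp, Dhcr7 and Acaca rose, and Sc5d, Srebf2, Insig1 and Stard4 fell. In 6 members every clone library lay above wild type (23.9% of all genes) and in 6 below (25.8%; 49.7% in either direction). Hmgcs1 stood at 116.1 and 123.8 CPM in wild type, 93.7 and 99.7 in clone 2.4 and 111.6 and 137.6 in clone 2.5, which overlaps (log2 fold change -0.12 ± 0.17 SE, adjusted p = 0.673). Hsd17b7 stood at 15.4 and 15.3 CPM in wild type, 13.4 and 14.7 in clone 2.4 and 18.6 and 25.7 in clone 2.5 (0.24 ± 0.28, adjusted p = 0.587). For both genes clone 2.4 was below wild type and at least 1 library of clone 2.5 above it. The DESeq2 Wald test on the libraries called 9 members (31.0%), where 32.1% of all genes were called. Summing the duplicates per culture left wild type without a replicate in each line. Few genes of any kind passed in that fit, so it cannot show that no member differs. Without FoP wild type duplicate 1 there was 1 call and without duplicate 2 there were 2.

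The difference between the lines was tested as the log2 effect in FoP minus that in CVP. It was called for 5 members, 4 lower in FoP and 1 higher, where 15.8% of all genes were called, 8.49% lower and 7.28% higher. The median difference was -0.74 over the sterol arm and -0.02 over all genes, and 16 of the 18 sterol genes had a negative difference. The called differences were Mvd at -1.16 ± 0.34 (SE, adjusted p = 0.0434), Stard4 at -1.12 ± 0.24 (adjusted p = 0.0102), Hmgcs1 at -0.93 ± 0.25 (adjusted p = 0.0336), Acly at -0.45 ± 0.11 (adjusted p = 0.0153) and Scd1 at 0.43 ± 0.11 (adjusted p = 0.0168). For the other 24, a call in 1 line alone is no difference between lines: Nsdhl, for instance, differed by -1.05 ± 0.36 at an adjusted p of 0.0817 and Hsd17b7 by -1.07 ± 0.40 at 0.0994. Of the called differences, that of Hmgcs1 was lost in 7 of 12 omissions of a library (adjusted p up to 0.124), that of Mvd in 9 (up to 0.138), that of Acly without any of the 4 wild type libraries (up to 0.0673) and that of Scd1 without CVP wild type duplicate 1 or either FoP wild type library (up to 0.0982). The count rested on few libraries. It was 0 without CVP wild type duplicate 1, 2 without CVP wild type duplicate 2, 1 without either FoP wild type library and 17 without duplicate 2 of clone 2.5. It was 11 without duplicate 2 of clone 2.10, and 3 without duplicate 1 of clone 2.10, duplicate 2 of clone 2.4 or duplicate 1 of clone 2.5. It was 18 without clone 2.5 (62.1% of members, where 16.4% of all genes were called). With the 6 cultures as separate groups it was 16 (55.2%, against 25.9%), and by the DESeq2 Wald test 13 (44.8%, against 20.7%). Without clone 2.9 or clone 2.4 it was 4 (13.8%), where 14.6% and 15.5% of all genes were called.

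**Figure D2:**
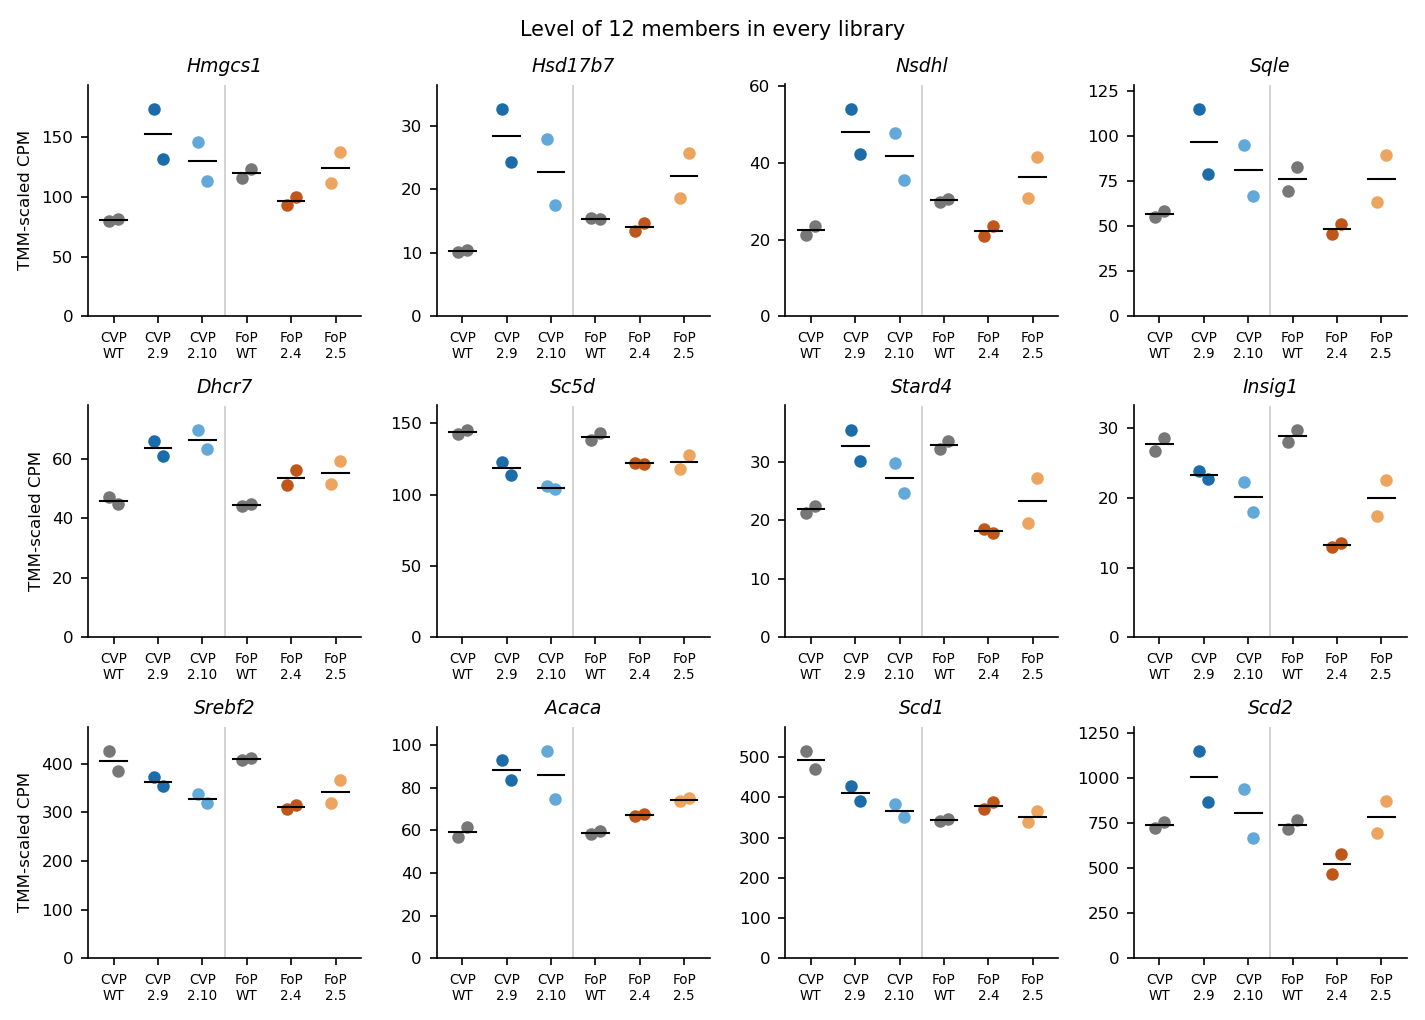
TMM-scaled CPM (vertical axes from 0) of 12 members in the 2 libraries of each culture, with the culture mean as a line; grey is wild type, blue the CVP clones and orange the FoP clones. In the panels of Hmgcs1, Hsd17b7, Nsdhl and Sqle all CVP clone points lie above CVP wild type, whereas FoP clone 2.4 lies below FoP wild type.

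Stard4, a soluble carrier that moves cholesterol between membranes, stood at 21.3 and 22.4 CPM in CVP wild type, 35.4 and 30.2 in clone 2.9 and 29.8 and 24.7 in clone 2.10. It rose there (log2 fold change 0.46 ± 0.17 SE, adjusted p = 0.0451), although 9 of the 12 single-library omissions took the call away (adjusted p up to 0.203). These were each of the 4 wild type libraries, either duplicate of clone 2.9 and duplicate 1 of clones 2.10, 2.4 and 2.5. The FoP values were 32.2 and 33.6 CPM in wild type, 18.6 and 17.8 in clone 2.4 and 19.5 and 27.2 in clone 2.5. All 4 FoP clone libraries were below wild type (-0.66 ± 0.16, adjusted p = 0.0106). It was the only member called in opposite directions in the 2 lines. The fall was lost without either FoP wild type library (adjusted p up to 0.0781), and the difference between lines without CVP wild type duplicate 1 (0.0577).

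Insig1, which retains SREBP in the endoplasmic reticulum and is itself a known SREBP target, was lower in the clones of both lines. It stood at 26.7 and 28.6 CPM in CVP wild type, 23.8 and 22.7 in clone 2.9 and 22.2 and 17.97 in clone 2.10, below wild type in 4 of 4 libraries without passing (log2 fold change -0.35 ± 0.19 SE, adjusted p = 0.159). The FoP values were 27.9 and 29.7 CPM in wild type, 13.0 and 13.6 in clone 2.4 and 17.5 and 22.6 in clone 2.5 (-0.79 ± 0.19, adjusted p = 0.0100). Srebf2 stood at 426 and 386 CPM in CVP wild type, 372 and 354 in clone 2.9 and 339 and 319 in clone 2.10 (-0.23 ± 0.08, adjusted p = 0.0258). The FoP values were 409 and 412 CPM in wild type, 308 and 315 in clone 2.4 and 319 and 367 in clone 2.5 (-0.33 ± 0.08, adjusted p = 0.0069). Srebf2 therefore fell in both lines, including the CVP line in which 12 sterol enzymes rose. The FoP calls of both genes were lost without either FoP wild type library (adjusted p up to 0.0752 for Insig1 and 0.0581 for Srebf2), and the CVP call of Srebf2 without CVP wild type duplicate 1 or duplicate 2 of clone 2.10 (up to 0.254).

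Srebf1 missed the threshold in both lines. It stood at 207 and 212 CPM in CVP wild type, 276 and 227 in clone 2.9 and 293 and 238 in clone 2.10 (log2 fold change 0.31 ± 0.12 SE, adjusted p = 0.0603). FoP libraries held 147.7 and 149.4 CPM in wild type, 167.4 and 164.5 in clone 2.4 and 201.5 and 214.2 in clone 2.5 (0.33 ± 0.12, adjusted p = 0.0643). Every clone library was above its own wild type in both lines. Counts per gene do not separate the transcripts of Srebf1, nor do they show how much SREBP protein was cleaved.

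In the fatty acid arm 4 of 7 genes rose in the CVP clones, 1 fell and 2 did not pass, with a median log2 fold change of 0.36. Acaca, acetyl-CoA carboxylase, which commits carbon to fatty acids, stood at 56.8 and 61.6 CPM in CVP wild type, 92.7 and 83.6 in clone 2.9 and 97.0 and 74.7 in clone 2.10 (0.56 ± 0.09 SE, adjusted p = 0.000322). FoP libraries held 58.3 and 59.5 CPM in wild type, 66.8 and 67.4 in clone 2.4 and 73.6 and 75.0 in clone 2.5 (0.26 ± 0.09, adjusted p = 0.0453). The groups did not overlap in either line. Its CVP call held in all 12 omissions of a library. Its FoP call was lost in 7 of them, without any 1 wild type library, duplicate 2 of clone 2.9 or either duplicate of clone 2.5 (up to 0.209).

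Fasn, fatty acid synthase, rose in CVP from 177.6 and 183.1 CPM to between 221 and 299.7 (log2 fold change 0.52 ± 0.11 SE, adjusted p = 0.00258). In FoP its clones were above wild type without a call, at 180.6 to 211 CPM against 155.6 and 167.5 (0.24 ± 0.11, adjusted p = 0.124). Acly rose in CVP from 162.2 and 161.9 CPM to between 193.5 and 229 (0.36 ± 0.08, adjusted p = 0.00242), and in FoP overlapped wild type (-0.10 ± 0.08, adjusted p = 0.385). Elovl6, which lengthens C16 fatty acids, rose in CVP by 0.39 ± 0.14 on the log2 scale (adjusted p = 0.0402), a call lost without either CVP wild type library or duplicate 1 of either CVP clone (up to 0.216). Its value in FoP was 0.01 ± 0.14 (adjusted p = 0.965).

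Among the members, none of Scd1, Scd2 and Elovl5 was called higher than wild type in the clones of either line. They were not tested against the enzymes that make palmitate. Scd1, a stearoyl-CoA desaturase, stood at 514 and 472 CPM in CVP wild type, 428 and 391 in clone 2.9 and 384 and 351 in clone 2.10, all 4 clone libraries below wild type. It fell (log2 fold change -0.34 ± 0.07 SE, adjusted p = 0.00219), in every omission of a library as well. FoP libraries held 341 and 346 CPM in wild type, 370 and 389 in clone 2.4 and 338 and 366 in clone 2.5, which overlaps (0.09 ± 0.08, adjusted p = 0.418). Its paralog Scd2 overlapped wild type in both lines, at 667 to 1150 CPM in the CVP clones against 726 and 760 (0.29 ± 0.25, adjusted p = 0.381) and at 468 to 873 in the FoP clones against 717 and 768 (-0.18 ± 0.25, adjusted p = 0.634). Elovl5, which elongates polyunsaturated fatty acids, was below wild type in all 4 CVP clone libraries without a call (-0.17 ± 0.08, adjusted p = 0.0792), and stood at -0.11 ± 0.08 in FoP (adjusted p = 0.327).

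Each CVP clone was also set against wild type on its own. Clone 2.9 had 13 of the 18 sterol enzymes higher and 1 lower (median 0.82; 47.1% of all genes were called, 23.4% higher and 23.6% lower), and clone 2.10 had 12 higher and 1 lower (median 0.55; 49.6% of all genes, 25.2% and 24.4%). The 2 comparisons share their wild type libraries. Set against each other, the CVP clones gave 0 calls among the 29 members by edgeR (5.42% of all genes, 2.89% higher and 2.54% lower in clone 2.10), with 3 members at an unadjusted p under 0.05 and 0 calls by the DESeq2 Wald test. The sterol arm was lower in clone 2.10 than in clone 2.9 in 16 of 18 genes by sign, with a median of -0.21. In 2 members both libraries of clone 2.10 lay above both of clone 2.9 (21.9% of all genes) and in 6 below (21.0%; 42.9% in either direction). The 95% interval of the log2 difference in Hmgcs1 ran from -0.56 to 0.09.

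The FoP clones differed from each other. In clone 2.4 the sterol arm had 2 genes higher than wild type and 8 lower (median -0.37; 32.4% of all genes were called, 15.1% higher and 17.3% lower), and in clone 2.5 it had 3 higher and 1 lower (median 0.09; 34.4% of all genes, 16.3% and 18.1%). Compared directly, 7 of the 29 members were higher in clone 2.5, namely Mvd, Idi1, Fdft1, Lss, Msmo1, Insig1 and Elovl5, and 0 were lower, against 7.26% of all genes called, 3.53% higher and 3.72% lower. Mvd stood at 8.48 and 8.75 CPM in clone 2.4 and at 13.1 and 16.4 in clone 2.5 (log2 fold change 0.77 ± 0.13 SE, adjusted p = 0.00241). In 26 of the 29 members both libraries of clone 2.5 lay above both of clone 2.4, against 26.7% of all genes, and in 1, Scd1, they lay below (27.2%; 53.9% in either direction). In this comparison the 6 cultures were separate groups, and the 6 calls beside Mvd were each lost in 2 to 7 omissions of a library, always including duplicate 1 of clone 2.4 and duplicate 2 of clone 2.5 (adjusted p up to 0.218). There was 1 call without duplicate 1 of clone 2.4 or duplicate 2 of clone 2.5, there were 2 without duplicate 2 of clone 2.4, and there were 13 without either duplicate of clone 2.10.

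**Figure D3:**
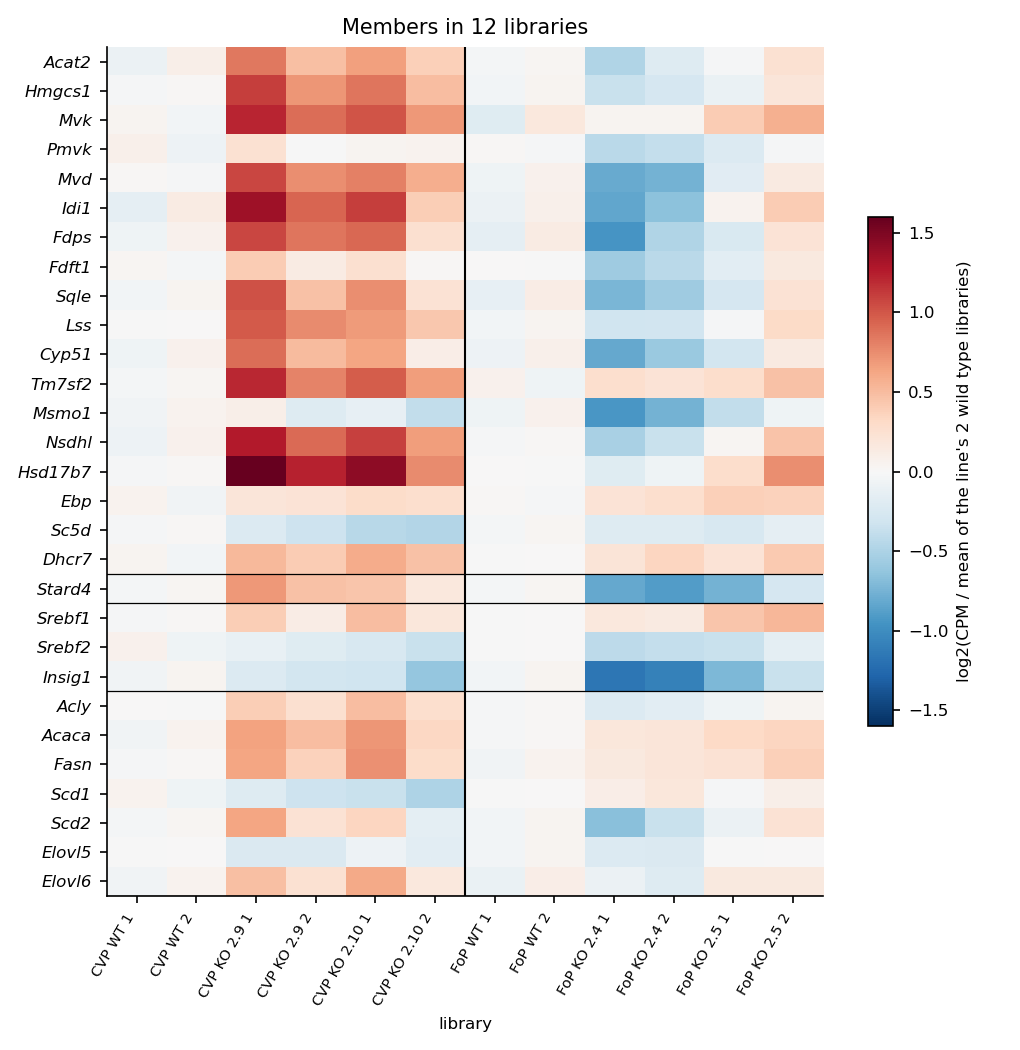
Log2 ratio of each member's CPM to the mean of the 2 wild type libraries of its own line, for 29 members (rows, in pathway order) in 12 libraries (columns); red is above wild type and blue below. The sterol rows other than Sc5d and Msmo1 are mostly red in the 4 CVP clone libraries, with sterol arm medians of 2.00, 1.52, 1.64 and 1.31 times wild type, and mostly blue in FoP clone 2.4, with medians of 0.730 and 0.792 times.

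The duplicates of a clone differed in the whole sterol arm at once. In clone 2.9, 17 of 18 sterol genes were higher in duplicate 1 than in duplicate 2 (median log2 ratio 0.32), and in clone 2.10 likewise 17 of 18 (0.28). In clone 2.5 the order was the opposite, with 1 of 18 higher in duplicate 1 (-0.32), and in clone 2.4 it was 2 of 18 (-0.13). The wild types gave 6 of 18 in CVP (-0.04) and 5 of 18 in FoP (-0.08). Over all tested genes 47.0% to 51.3% were higher in duplicate 1. The median sterol gene of clone 2.9 was 2.00 times its wild type in duplicate 1 and 1.52 times in duplicate 2, and that of clone 2.10 was 1.64 and 1.31 times. In clone 2.5 it was 0.958 and 1.18 times, on either side of wild type. The fatty acid arm showed the same order in the CVP clones, with 7 of 7 genes higher in duplicate 1 of both. The 4 cycling genes (Mki67, Top2a, Ccnb1, Cdk1) had the same order in 3 clones: all 4 were higher in duplicate 1 of clone 2.9 (median 0.46) and of clone 2.10 (0.53), and 1 of 4 in clone 2.5 (-0.10). In clone 2.4 they were higher in 2 of 4 (0.04), as in both wild types. Krt14, a keratin of basal epithelial cells, stood at 5422 and 4091 CPM in clone 2.9, 5116 and 3830 in clone 2.10, 2694 and 2989 in clone 2.4 and 3149 and 3900 in clone 2.5. Trp63, another epithelial marker, stood at 392.9 and 416 CPM in clone 2.9 and 389.2 and 442.5 in clone 2.10. It stood at 635.7 and 554.3 CPM in clone 2.4 and 554.5 and 515.1 in clone 2.5. The part of these genes in the sterol result was not tested.

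**Figure D4:**
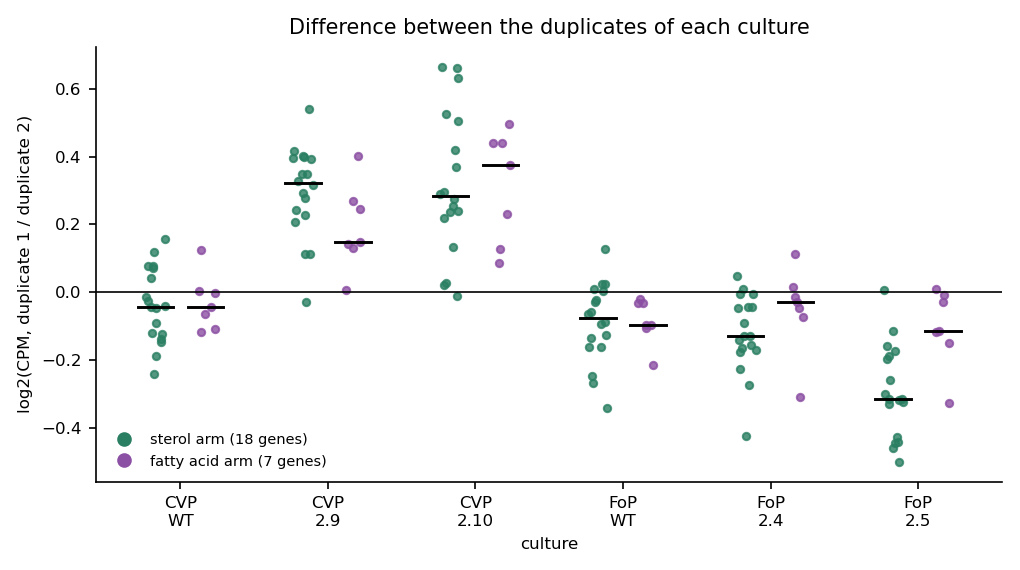
Log2 ratio of duplicate 1 to duplicate 2 (0.5 CPM added) for each sterol arm gene (green) and fatty acid arm gene (purple) in 6 cultures, with the median as a bar. The sterol medians are 0.32 and 0.28 in the CVP clones, -0.32 in clone 2.5 and between -0.13 and -0.04 in the other 3 cultures.

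Among the epithelial markers, 2 rose and 3 fell in the CVP clones, and 1 rose and 1 fell in FoP. Over all tested genes 23.5% were called higher and 22.9% lower in CVP, and 13.5% and 15.3% in FoP. Krt14 stood at 1878 and 1687 CPM in CVP wild type and at 2773 and 2776 in FoP wild type. It rose in CVP (log2 fold change 1.37 ± 0.17) and did not pass in FoP (0.20 ± 0.16, adjusted p = 0.388), a called difference of -1.17 ± 0.22 (adjusted p = 0.00564). Krt5, its partner keratin, rose in CVP by 0.58 ± 0.11 on the log2 scale. Other epithelial markers were lower in the CVP clones. Mean CPM in wild type and clones was 1573 and 1087 for Epcam, 799.8 and 540.6 for Krt18, and 519.3 and 410.2 for Trp63. In FoP the mean of Trp63 was 423.7 CPM in wild type and 564.9 in the clones. Across genotypes the same cycling genes fell in the clones. They summed to 171 and 172 CPM in CVP wild type and to 78.3 to 144.1 in the CVP clones, where 3 of 4 fell, and to 318 and 319 in FoP wild type and 74.1 to 99.2 in the FoP clones, where all 4 fell. The keratinocyte differentiation list of 6 genes fell in 6 of 6 in CVP, from 93.2 and 72.5 CPM summed to between 4.53 and 11.9, and in 4 of 6 in FoP, from 122.1 and 105.3 to between 13.6 and 38.9. Cd68 was the only macrophage marker of 4 expressed enough to test, and fell in both lines, with Ptprc at 0 in every library. A sebocyte list of 7 genes summed to 210 and 224 CPM in CVP wild type and 247 to 313 in the CVP clones, and to 184 and 178 in FoP wild type and 227 to 254.7 in the FoP clones. Most of that sum was Plin2, a lipid droplet coat gene that other cells also express, at 147 to 285 CPM; Mc5r and Awat1 were at or near 0. Of 5 gland genes, 4 fell in CVP and 3 fell in FoP, where 1 rose. Muc5b, a secreted mucin that held at most 47.58 CPM in a library, fell by 9.07 ± 0.40 and 7.31 ± 0.55 on the log2 scale. Ltf, the most abundant of the 5, was the gene that rose in FoP. Its FoP clone libraries lay between 10030 and 11960 CPM, above wild type (4437 and 4387). Its CVP clone libraries, between 5880 and 10790 CPM, overlapped wild type (6294 and 7403). Endothelial markers summed to at most 2.71 CPM and fibroblast markers to at most 9.16 CPM in a library. In bulk RNA a change in the share of a cell type and a change in RNA per cell cannot be told apart, and the part of these markers in the lipid genes was not tested.

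Counts for other lipid gene lists are read beside the share of all genes called, 23.5% higher and 22.9% lower in CVP and 13.5% and 15.3% in FoP; no list was tested against another. Of 4 genes that process SREBP, 3 rose and 1 fell in CVP and 3 rose in FoP. Mbtps1, the site-1 protease that cuts SREBP, rose by 0.84 ± 0.09 and 0.70 ± 0.09 on the log2 scale in CVP and FoP, and Scap, which escorts SREBP to the Golgi, by 0.23 ± 0.05 and 0.30 ± 0.05. Insig2 fell in CVP (-0.19 ± 0.06). Of 10 genes of sterol uptake, storage and efflux, 3 rose and 5 fell in CVP, and 4 rose and 3 fell in FoP. Nr1h3, the sterol-sensing receptor LXR alpha, rose by 1.33 ± 0.21 and 1.46 ± 0.22, and Lipa, the lysosomal acid lipase, by 0.60 ± 0.10 and 0.82 ± 0.10. Abca1, which exports cholesterol and is a known LXR target, fell in CVP (-0.51 ± 0.10) and rose in FoP (0.59 ± 0.11), a called difference of 1.10 ± 0.15 (adjusted p = 0.00133). Npc2, a lysosomal sterol carrier, fell in CVP (-0.60 ± 0.06), and Scarb1, a lipoprotein receptor, and Soat1, which esterifies cholesterol, fell in FoP (-0.44 ± 0.08 and -0.36 ± 0.12).

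Of 9 genes of nonsterol isoprenoids, a branch that leaves the pathway before squalene, 2 rose and 5 fell in CVP and 1 rose and 4 fell in FoP. Pdss1, which builds the ubiquinone side chain, rose in CVP (1.09 ± 0.23), while Ggps1, which makes geranylgeranyl diphosphate, fell (-0.28 ± 0.04). Of 18 tested genes of desaturation, elongation and NADPH supply, 7 rose and 2 fell in CVP and 5 rose and 1 fell in FoP. Fads3 rose in both lines (1.26 ± 0.23 and 0.98 ± 0.23), and Mid1ip1, known to help acetyl-CoA carboxylase polymerise, fell in both (-0.95 ± 0.09 and -0.58 ± 0.09).

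Of 13 genes of glycerolipid assembly and lipid droplets, 1 rose and 6 fell in each line. Plin2 rose (0.44 ± 0.11 in CVP and 0.48 ± 0.11 in FoP), and Acsl1, which activates long-chain fatty acids, fell (-0.83 ± 0.08 and -0.38 ± 0.08), as did Lpin1 (-0.66 ± 0.07 and -0.44 ± 0.07). Of 9 genes of fatty acid oxidation, 2 rose and 2 fell in CVP, which is near the background. In FoP 4 rose and 1 fell. Ppara had the highest fold change in FoP (1.26 ± 0.38), at low levels. It stood at 0.58 and 0.24 CPM in FoP wild type and between 0.82 and 1.26 in the FoP clones. Bdh1, which interconverts the ketone bodies, fell in both lines (-0.75 ± 0.15 in CVP and -0.69 ± 0.15 in FoP).

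Some members share sequence with another gene, and how the counting assigned such reads is not stated. Exons of Fdft1 overlap 774 bases of Ctsb on the opposite strand, which held 56461 to 82460 counts, and those of Tm7sf2 share 532 bases with Vps51. Those of Fdps share 1124 bases on the same strand with Gm43738, which held 0 counts in every library. Transcripts of Fdps, Idi1, Acat2, Elovl6 and Acaca match other loci at 95% identity or more over at least 400 bases, the longest being 6118 bases between Acaca and Gm5182, which held 51 to 144 counts. Acat2 shares 445 bases at 98.7% identity with Tcp1, which held 16468 to 22726 counts. Exons of Hmgcs1 overlap those of the antisense gene Gm48342 over 557 bases, which held at most 8 counts. Scd1 and Scd2 share a stretch of 623 bases at 95.5% identity. The values of these 10 members are uncertain to that extent.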

How the data were processed

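RNA from 12 organoid libraries was prepared with a Qiagen kit and a stranded poly(A) TruSeq kit, per the labels' protocols. The authors deposited raw counts per gene for 55367 genes. The submitters' processing notes name STAR, featureCounts and hg38, with no versions; the symbols are mouse symbols, and 96.1% match 1 gene of GENCODE M21. Whether strand was used in counting is not stated there. From these counts, genes were filtered with filterByExpr (17076 kept), scaled by TMM and fitted over 4 arms (line by genotype) with the robust quasi-likelihood functions of edgeR 4.0.16 in R 4.3.3; clone contrasts came from a fit of 6 cultures. P-values were adjusted over all tested genes by Benjamini-Hochberg, with a threshold of 0.05. SE is the log2 fold change over the root of F, an approximation. CPM uses TMM-scaled totals, and CPM per kb the merged exon length.

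Totals were 59.3 to 73.6 M counts. Low counts of 2 and 4 were over-represented, so counts halved were an alternative. The 29 members, the other lists and the markers were chosen with earlier results of these data known, and all 29 are named. Full values are given for members called in both lines or in opposite directions and for regulators, and in other lists at most 2 called genes per direction and line. The counts of the ketone list are not reported here. As alternatives, the scaling was replaced by DESeq2 size factors, the filter dropped or raised (to 1 CPM in 4 libraries) and the test replaced by DESeq2 1.42.0 (Wald) or by limma 3.58.1 voom with culture as a block (correlation 0.255). Further ones were the duplicate number as a block, duplicates summed, 6 cultures, 1 line per fit, and each clone and library left out. A lone wild type library was assumed to vary like the others. Tested on simulated data, the CVP comparison recovered 64 of 100 genes changed 1.5-fold and 85 of 100 changed 2-fold, with 9 false calls among 16876. The simulated libraries were drawn independently, with no effect of culture or clone and few genes changed. The false calls therefore do not measure the error from using duplicates of a culture as replicates. Near-copies were found with blastn 2.17.0+.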

Additional observations from a re-analysis of the deposited data

Results flagged for a closer look

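For 5 members the effect of the knock-out label was called as different between the lines, by the interaction term of edgeR's quasi-likelihood fit over all genes. They are 17.2% of the 29, near the 15.8% of all tested genes that were called. The log2 effect in FoP minus that in CVP was -0.93 for Hmgcs1, -1.16 for Mvd, -1.12 for Stard4, -0.45 for Acly and 0.43 for Scd1. For Stard4 every clone library lay above wild type in CVP and below it in FoP. For Hmgcs1, Mvd and Acly the 4 CVP clone libraries lay above wild type and the FoP clone libraries overlapped theirs. For Scd1 the CVP clone libraries lay below wild type and those of FoP overlapped. No library stood apart among the 4 clone libraries of a line for any of the 29 members by Dixon's test at the 95% level. These libraries are duplicates of clones, and with only 4 values the test can miss a library that differs.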

How the results depend on the processing

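Of 1972 member fold changes recomputed under the alternatives other than leaving out a library, 1798 kept their side of the threshold, 73 lost their call and 101 gained one; of 2088 with a library left out, 1918 kept it, 116 lost their call and 54 gained one. A called value changed sign in 0 of both. The number of members called moved by more than 1.5 times under the following settings. For CVP clones against wild type (20) it was 6 with duplicates summed and 13 without clone 2.9, and 11 to 23 with a library left out. For FoP (7) it was 0 with duplicates summed (7 at an unadjusted p under 0.05) and 11 with 6 cultures, and 1 to 10. For the difference between lines (5) it was 3 with no filter, 13 by the DESeq2 Wald test, 0 with duplicates summed (4 unadjusted), 16 with 6 cultures and 18 without clone 2.5, and 0 to 17. For the wild types (2) it was 5 by the Wald test, 1 with the replicate block, 1 with voom, 0 with duplicates summed (4 unadjusted), 5 with 6 cultures and 4 without clone 2.5, and 0 to 4. For the CVP clones (0) it was 1 with no filter, and 0 to 0. For the FoP clones (7) it was 16 with no filter, 14 by the Wald test and 16 with 1 line per fit, and 1 to 13. The cause of these shifts was not tested, except that summing the duplicates left 6 samples, with wild type unreplicated in each line. For FoP, the difference and the wild types that fit called few genes of any kind or none. A lack of calls there cannot show that no member differs.

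Duplicate numbers were not taken to pair the samples, because the labels do not say that a number is shared between cultures. The deviations of duplicate 1 did not correlate between all cultures, which does not settle whether some cultures were handled together. The correlation was 0.358 between the CVP clones, 0.188 between the FoP clones and 0.13 between the wild types, and from -0.157 to 0.042 for the other pairs. With the replicate number as a block the members called were 17 in CVP, 6 in FoP, 4 for the difference, 1 between the wild types, 0 between the CVP clones and 5 between the FoP clones. DESeq2 size factors moved the median of all genes from 0.03 to 0.02 in CVP and left it at 0.01 in FoP. Depth limits the lowest member, Tm7sf2, to a counting error of 6.1%. There were 2 wild type libraries and 2 clones a line, and what limits the other members was not tested.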

Other observations

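Low counts were uneven in all 12 libraries. In CVP wild type duplicate 1, 1866 genes held 1 count, 1710 held 2, 585 held 3 and 814 held 4, so that 4 was more frequent than 3. Halving the counts left the number of members called as it was in every comparison (20, 7, 5, 2, 0 and 7).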
